A study of Mus musculus with 18 samples.

Results

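Medium spiny neurons are the projection neurons of the striatum, and 36 genes that mark their identity were followed here in RNA from striatal microglia. The genes were taken by symbol from a list. An identifier was found for 35 of the 36 among the 55536 genes of the count table, and Gpr52, an orphan receptor of the indirect pathway, was not analysed here. Of these 35 members, 6 mark the direct pathway, 5 the indirect pathway and 24 are shared by both. Striata of adult mice were dissociated, microglia were captured on CD11b beads, which bind myeloid cells, and their RNA was sequenced after amplification with a kit for very small inputs. The 18 libraries came from 5 WT, 3 Tyrobp-KO, 5 Q175 and 5 Q175;Tyrobp-KO mice, all labelled as strain C57BL/6, which the methods give as C57Bl6/J. Q175 mice are heterozygous knock-ins that carry an expanded CAG repeat in the huntingtin gene in every tissue, Tyrobp-KO mice lack the adaptor protein TYROBP from the germline, and Q175;Tyrobp-KO mice have both changes. The labels name 1 female and 4 males among the WT mice, 2 and 1 among Tyrobp-KO, 4 and 1 among Q175, and 2 and 3 among Q175;Tyrobp-KO mice. Total counts per library lay between 11260410 and 29771983. Whether replicate libraries of a group shared a litter, a dissection day or a bead column is not stated in the labels or methods, and p-values therefore measure the spread between these libraries.

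Medium spiny neurons receive glutamate from the cortex and dopamine from the midbrain and inhibit the output nuclei of the basal ganglia. Neurons of the direct pathway carry the dopamine receptor DRD1 and the peptides substance P and dynorphin, and those of the indirect pathway carry DRD2, the adenosine receptor ADORA2A and enkephalin. Both kinds share a signalling apparatus that turns receptor input into cyclic AMP and protein phosphorylation, and transcripts of this apparatus are known to decline in the striatum of mice with mutant huntingtin.

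Promoter windows are shown for 3 of the 6 members with the smallest p-values in the comparison of Q175 with WT, to show the sequence at the starts of genes that were high together in the same libraries. Ddn and Syndig1l had no window, and 21 bases were left for Scn4b. The RefSeq windows, on GRCm38.p6, run up to 250 bases before the annotated start. As shown here they leave out bases inside a gene of GENCODE M21. Windows were matched for 27 of the 35 members. Capitals mark the GC box, written GGGCGG or CCGCCC on the other strand.
Gng7 (chr10:81014946-81015175, minus strand): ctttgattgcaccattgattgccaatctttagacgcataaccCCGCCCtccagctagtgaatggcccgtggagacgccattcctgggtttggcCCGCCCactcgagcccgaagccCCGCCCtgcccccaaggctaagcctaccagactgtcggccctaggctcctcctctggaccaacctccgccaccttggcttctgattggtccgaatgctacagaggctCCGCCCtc
Rxrg (chr1:167598112-167598361, plus strand): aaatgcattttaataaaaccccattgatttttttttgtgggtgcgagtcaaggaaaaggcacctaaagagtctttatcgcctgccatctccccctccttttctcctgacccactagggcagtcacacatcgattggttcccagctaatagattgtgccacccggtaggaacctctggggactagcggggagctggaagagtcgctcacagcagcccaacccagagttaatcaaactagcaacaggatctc
Rasd2 (chr8:75213694-75213943, plus strand): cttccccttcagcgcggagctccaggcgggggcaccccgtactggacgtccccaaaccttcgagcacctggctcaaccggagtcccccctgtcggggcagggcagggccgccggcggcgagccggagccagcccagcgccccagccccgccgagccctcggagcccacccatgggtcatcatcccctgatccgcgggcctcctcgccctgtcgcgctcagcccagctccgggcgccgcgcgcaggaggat
The Gng7 window of 230 bases holds 4 GC boxes, which begin 28, 135, 157 and 208 bases before the RefSeq start. That start lies inside the GENCODE gene, and a further box, 7 bases before it, is among the bases left out. Neither of the windows of Rxrg and Rasd2, 250 bases each, holds any of the 4 motifs searched on both strands, which were the GC box, the cyclic AMP response element TGACGTCA, the nuclear receptor half-site AGGTCA and the TATA box TATAAA. Motifs were counted over the full 250 bases before the RefSeq start, bases inside a GENCODE gene included, for the members and for all promoters. A GC box was present in 13 of the 27 member promoters (48.1%), beside 32.74% of 32851 promoters of the same length. The cyclic AMP response element occurred in 1 of the 27, that of Gpr6, beside 1.546% of all, the half-site in 1, that of Actn2, beside 14.02%, and the TATA box in 3, those of Meis2, Rgs4 and Rgs9, beside 12.37%. These matches describe the letters of the windows and are not evidence of binding.

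All 35 members were detected, and 34 of them had a count in every library. Isl1, a transcription factor of direct-pathway neurons, was the exception, with no count in Tyrobp-KO replicate 19. Summed over the members, normalised counts ranged from 12018 in WT replicate 8 to 56465 in Tyrobp-KO replicate 20. The members took 0.0692% to 0.288% of all counts of a library, and both ends of this range were Q175 libraries (replicates 17 and 9). The summed level of 15 microglial markers, such as P2ry12, Csf1r and C1qa, was between 244251 and 521300 and exceeded that of the members by 5.08 to 37.5 times. The fraction was thus microglial by its markers, with a smaller neuronal share. The source of the neuronal transcripts in the bead fraction was not tested. In bulk libraries such as these, fewer cells of a type and less RNA per cell cannot be told apart.

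Per kilobase of exon, the most abundant members were enzymes and regulators of signalling. Adcy5, the main adenylyl cyclase of the striatum, had a median over the 18 libraries of 642 normalised counts per kb, Pde1b, a calcium-dependent phosphodiesterase, 352, and Ppp1r1b, which encodes the phosphatase inhibitor DARPP-32, 245. The lowest 7 in this order were Drd1, Gpr6, Tac1, Pdyn, Eya1, Slc35d3 and Isl1, with medians from 17.9 down to 3.28, and 6 of them belong to the direct pathway. The ranges of neighbours in the order overlapped over the libraries. The median over genes of these per-kb levels was 10.2 for the direct-pathway members, 49.1 for the indirect-pathway members and 113 for the shared members, beside 8942 for the microglial markers, 92.1 for 12 astrocyte markers and 84.8 for 12 pan-neuronal markers.

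**Figure D1:**
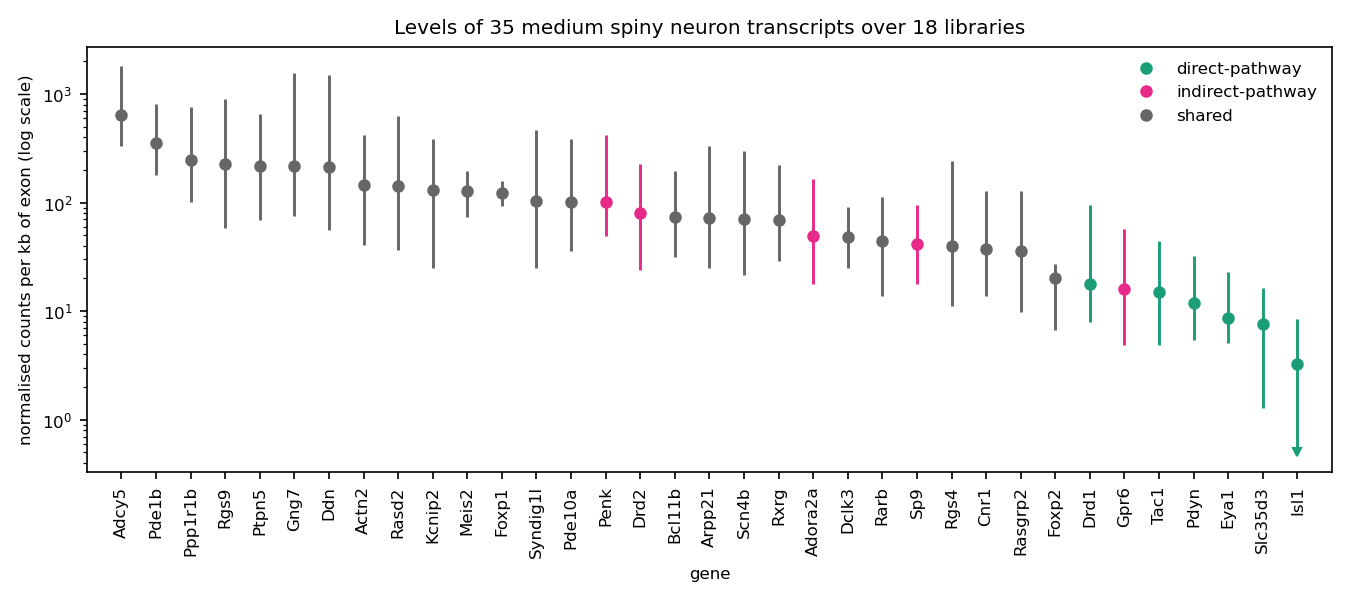
Median (dots) and range (lines) over 18 libraries of the normalised counts per kb of exon of each member, on a log scale, coloured by pathway. Adcy5 has the highest median (642) and Isl1 the lowest (3.28), and the line of Isl1 ends in an arrow because Tyrobp-KO replicate 19 had no count.

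The members' sums varied widely between libraries of 1 group. WT libraries had a members' sum of 25271 ± 14906 (SD, n = 5), and Tyrobp-KO libraries one of 29347 ± 23658 (SD, n = 3). Q175 libraries averaged 40907 ± 16466 (SD, n = 5), against 22669 ± 9782 (SD, n = 5) for the libraries of Q175;Tyrobp-KO mice. A few libraries set these spreads. Among the WT libraries, replicate 6 was the highest for 28 of the 35 members and replicate 8 the lowest for 28. Tyrobp-KO replicate 20 was the highest of its group for 34 members and replicate 15 the lowest for 31. Q175;Tyrobp-KO replicate 5 was the highest of its group for all 35, and replicate 11 the lowest for 26. In the Q175 group, 4 libraries stood together at sums of 39134 to 53065, while replicate 17 had 13048 and was the lowest for 30 members. By contrast Foxp1, a forkhead factor that many cell types express, differed by 1.69 times between its highest and lowest library, and Meis2 by 2.64 times. For Ddn, Rgs4 and Gng7 the same ratio was 26.9, 21.7 and 20.8.

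Marker sums of other cell types also varied between libraries, and not always with the members. Tyrobp-KO replicate 20 and Q175 replicate 14 were the highest of their groups in both the members' and the astrocyte sum. WT replicate 6, the highest WT library in the members' sum (50341), had the lowest astrocyte sum of all libraries (9601). The 12 astrocyte markers, none of which was at 0 in any library, summed to 9601 to 19366 in WT, 13608 to 76030.2 in Tyrobp-KO, 17552 to 115885 in Q175 and 12402 to 60285 in Q175;Tyrobp-KO libraries, with the highest values in Q175 replicate 14 and Tyrobp-KO replicate 20. The 12 pan-neuronal markers, also above 0 throughout, summed to 5211 to 11967, 6885 to 19415, 8365 to 28009.9 and 5690.4 to 16637 in the same order. The 6 choroid plexus and ependymal markers stood out in 3 libraries, at 23813 in Q175 replicate 3, 24448 in Q175 replicate 4 and 8063 in Q175;Tyrobp-KO replicate 11, against 78.3 to 1642 elsewhere, and 4 of these markers were at 0 in some library. The 10 oligodendrocyte markers summed to 30474 in WT replicate 7 up to 120525 in Q175 replicate 17. The members' sum over the pan-neuronal sum was 2.16 to 4.21 in WT, 1.83 to 2.91 in Tyrobp-KO, 1.56 to 4.59 in Q175 and 1.96 to 2.68 in Q175;Tyrobp-KO libraries, so Q175 held both the highest (replicate 9) and the lowest ratio (replicate 17). The part of these cell types in the results on the members was not tested beyond the values given beside each comparison. Tyrobp itself followed the labels, at 3650 to 8130 normalised counts in the 10 libraries with the gene and 176 to 409.9 in the 8 without it.

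**Figure D2:**
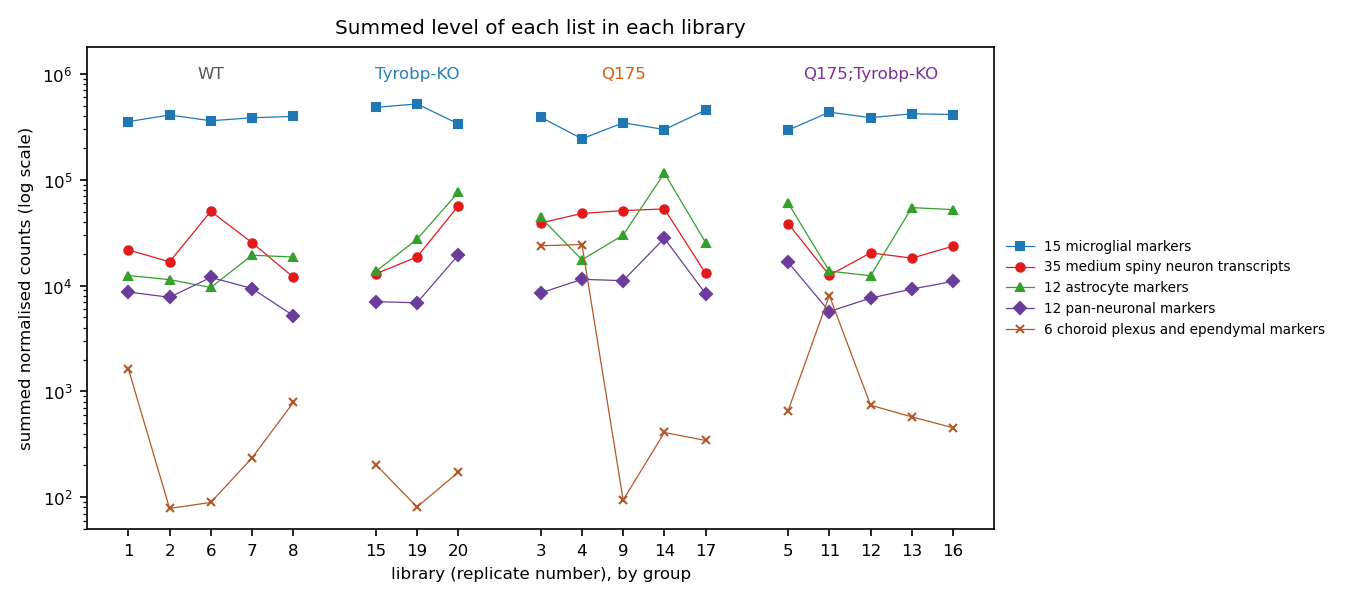
Summed normalised counts (log scale) of the 35 members and of markers of 4 cell types in each of the 18 libraries, ordered by group and replicate number. Microglial markers stay between 244251 and 521300, while the members range from 12018 to 56465 and choroid plexus markers are high in Q175 replicates 3 and 4 and Q175;Tyrobp-KO replicate 11.

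Q175 was compared with WT to ask how mutant huntingtin changes the transcripts of the microglial fraction. The members tended to be higher in Q175 libraries, with a positive median in every role, and none passed the threshold in edgeR. Of the 35, 34 had a positive log2 fold change and 1, Sp9, a negative one, with a median of 0.54 beside -0.02 for the 18266 genes tested. Unadjusted p was under 0.05 for 7 members, all of them higher (Gng7, Ddn, Rxrg, Rasd2, Syndig1l, Scn4b and Rgs4), where 5.47% of all genes tested were higher at that level. No member was lower at that level, beside 0.766% of all genes. At a false discovery rate (FDR, the Benjamini-Hochberg adjusted p over all genes) under 0.1, edgeR called 0 members and 0% of all genes, with a smallest FDR of 0.345 among the members. DESeq2 called 3 members, Gng7, Ddn and Rasd2, beside 1.28% of all genes. All Q175 libraries lay above all WT libraries for 2 members, Gng7 and Ddn, and for 1.04% of all genes. Replicate values below are given in the order 1, 2, 6, 7 and 8 for WT, 3, 4, 9, 14 and 17 for Q175, 15, 19 and 20 for Tyrobp-KO, and 5, 11, 12, 13 and 16 for Q175;Tyrobp-KO libraries, as normalised counts.

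The 3 neuropeptide precursors had log2 fold changes of 0.29 to 0.54, with no p under 0.05. Penk, the precursor of enkephalin, had 138, 90.7, 678, 194 and 80.7 in WT and 347, 398, 634, 236 and 80.2 in Q175 libraries. Its highest value was in WT replicate 6 and its lowest in Q175 replicate 17, and the groups overlapped throughout, with a log2 fold change of 0.49 (SE 0.61, FDR = 0.999). Tac1, the precursor of substance P, had 63.7, 39.8, 61.9, 56.1 and 20.2 in WT and 61.2, 69.4, 83.8, 115 and 28.95 in Q175 libraries. Q175 replicates 4, 9 and 14 were above every WT library and the other two Q175 libraries were not, at 0.54 (SE 0.40, FDR = 0.989). Pdyn, the precursor of dynorphin, had 15.7, 31.1, 92.4, 41.4 and 33.3 in WT and 34.03, 89.7, 54.1, 52.5 and 36.4 in Q175 libraries. All Q175 values of Pdyn fell inside the WT range, at 0.29 (SE 0.45, FDR = 0.999).

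The receptors had log2 fold changes from 0.08 (Drd1) to 0.86 (Adora2a), with a median of 0.75 over 5 genes and no p under 0.05. Drd1 had 121, 60.9, 343, 57.5 and 36.3 in WT and 101, 166, 225, 152 and 28.95 in Q175 libraries. WT replicate 6 was the highest of these 10 libraries and Q175 replicate 17 the lowest, so the groups overlapped fully, at 0.08 (SE 0.61, FDR = 0.9998). Drd2 had 227, 158, 497, 231 and 84.7 in WT and 391, 552, 575, 468 and 105 in Q175 libraries. Q175 replicates 3, 4, 9 and 14 were above 4 of the 5 WT libraries and in the range of WT replicate 6, whereas Q175 replicate 17 was above WT replicate 8 alone. The log2 fold change of Drd2 was 0.78 (SE 0.48, FDR = 0.944). Adora2a, which opposes DRD2 in indirect-pathway neurons, had 129, 111, 451, 158 and 58.5 in WT and 366, 476, 406, 362 and 69.5 in Q175 libraries. The same 4 Q175 libraries were above 4 of the 5 WT libraries, replicate 4 was also above WT replicate 6, and the log2 fold change was 0.86 (SE 0.55, FDR = 0.960). Cnr1, the cannabinoid receptor of striatal terminals, and Gpr6, a constitutively active receptor of indirect-pathway neurons, had 0.75 and 0.19.

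Genes of cyclic AMP signalling and protein phosphorylation had a median log2 fold change of 0.57 over 7 genes, from 0.36 for Pde1b to 0.93 for Ppp1r1b, with no p under 0.05. Ppp1r1b had 591, 623, 1827, 707 and 299 in WT and 1681, 2077, 1438, 2152 and 483 in Q175 libraries. WT replicate 6 lay among the 4 high Q175 libraries and Q175 replicate 17 among the other WT libraries, and the log2 fold change was 0.93 (SE 0.47, FDR = 0.868).

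G-protein signalling had the largest median of the roles, 1.29 over 5 genes, with values from 0.32 for Rgs9, the striatal regulator of G-protein signalling, to 2.24 for Gng7. Gng7, the gamma subunit of the G protein that couples striatal receptors to adenylyl cyclase, had 311, 339, 546, 591 and 513 in WT and 2306, 806, 1066, 5896 and 834 in Q175 libraries. The groups did not overlap, and Q175 replicate 14 was far above the other four. The log2 fold change was 2.24 (SE 0.52, FDR = 0.345), and 1.43 without Q175 replicate 14. Rasd2, a striatal small GTPase that binds mutant huntingtin, had 228, 216, 524, 289 and 115 in WT and 838, 694, 582, 2004 and 268 in Q175 libraries. Of the Q175 libraries, 4 were above every WT library and replicate 17 was inside the WT range, at 1.66 (SE 0.50, FDR = 0.387) and 1.09 without replicate 14. Rgs4, which shortens signalling of Gi- and Gq-coupled receptors, had 109, 134, 198, 34.8 and 39.3 in WT and 250.4, 239, 142, 537 and 113 in Q175 libraries. Q175 replicates 3, 4 and 14 were above all WT libraries and replicates 9 and 17 were not, at 1.29 (SE 0.52, FDR = 0.667).

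Among channels, scaffolds and membrane proteins the median was 0.92 over 6 genes, from 0.20 for Kcnip2, a subunit of A-type potassium channels, to 2.28 for Ddn. Ddn, which encodes the dendritic protein dendrin, had 266, 343, 671, 603 and 263 in WT and 2138, 784, 1160.3, 5648 and 837 in Q175 libraries. As for Gng7, the groups did not overlap and Q175 replicate 14 was far above the rest, and the log2 fold change was 2.28 (SE 0.54, FDR = 0.345), or 1.496 without that library. Scn4b, a sodium channel beta subunit of medium spiny neurons, had 136, 154, 655, 225 and 109.9 in WT and 822, 808, 784, 1201 and 141 in Q175 libraries. All Q175 libraries but replicate 17 were above all WT libraries, at 1.53 (SE 0.56, FDR = 0.5678). Syndig1l, a transmembrane protein related to SynDIG1, had 219, 145, 456, 226 and 85.7 in WT and 623, 501, 502, 1434 and 183 in Q175 libraries. The pattern was that of Scn4b, at 1.49 (SE 0.51, FDR = 0.496) and 0.97 without Q175 replicate 14. Exons of Ddn and Syndig1l overlap those of other genes, and the libraries did not keep strand, so their counts may include reads of the neighbours.

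Transcription factors had the smallest median of the roles, 0.32 over 9 genes, from -0.10 for Sp9, a factor needed for indirect-pathway neurons, to 1.02 for Rxrg. Rxrg, a retinoid X receptor, had 141, 116, 221, 163 and 118 in WT and 335, 278, 296, 505 and 152 in Q175 libraries. All Q175 libraries but replicate 17 were above all WT libraries, at 1.02 (SE 0.30, FDR = 0.379). By pathway, the median was 0.27 for the 6 direct-pathway members, 0.49 for the 5 indirect-pathway members and 0.61 for the 24 shared members, and all 7 members with p under 0.05 were shared ones. These differences between roles and pathways were not tested.

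**Figure D3:**
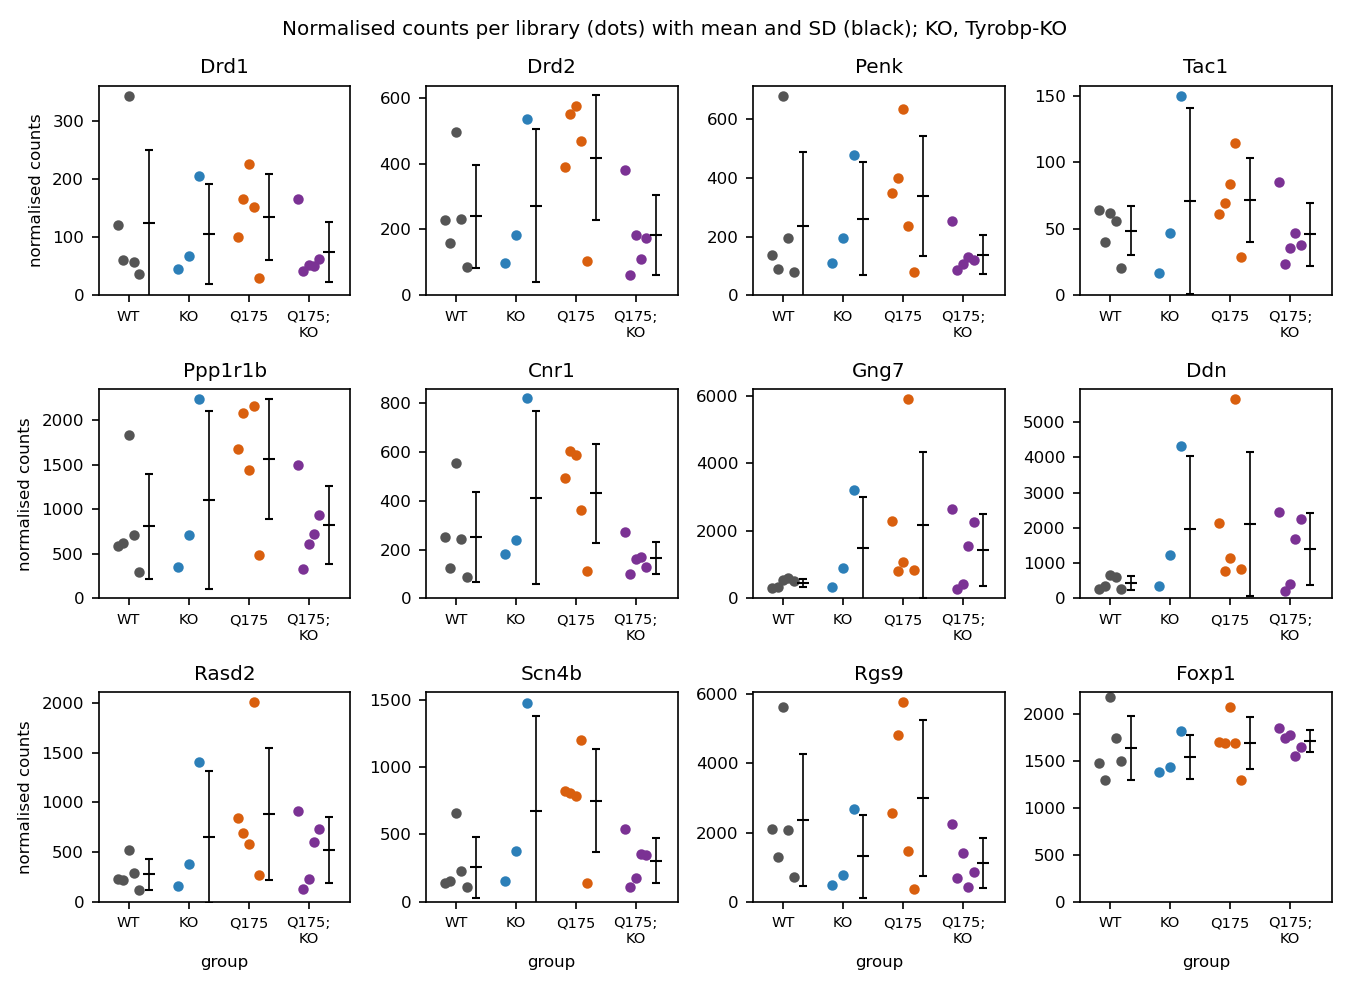
Normalised counts of 12 members in each library (dots) by group, with the mean and SD in black (n = 5, 3, 5 and 5). SD bars that would reach below 0 end at the axis. Gng7 and Ddn are higher in all Q175 than in all WT libraries, 1 Q175 library (replicate 17) is low for Drd1, Drd2, Penk and Tac1, and Foxp1 differs by 1.69 times between its highest and lowest library.

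The comparison of Q175 with WT moved with single libraries, with sex and with other cell types. Without WT replicate 6, 17 members had p under 0.05 and the median was 1.04, without Q175 replicate 17 there were 13 members, and without WT replicate 8 the median was 0.33. Genes higher at that level were 1041 of 18109 without WT replicate 6 and 1121 of 18190 without Q175 replicate 17, against 1000 of 18266 in the main fit. With sex as a term, 4 members had p under 0.05 (Ddn, Gng7, Rxrg and Scn4b), and 208 of 18266 genes were higher at that level. Astrocyte markers were higher for 12 of 12 genes, with a median of 1.20 and p under 0.05 for 11, and choroid plexus markers were higher for 5 of 5 tested, with a median of 3.83. Without Q175 replicates 3 and 4, the libraries highest in choroid plexus markers, the members' median was 0.40 and 6 members had p under 0.05, beside 887 higher and 90 lower of 17979 genes. Pan-neuronal markers were higher for 11 of 12 genes with a median of 0.34, and with their level as a term in the fit the members' median was 0.12, with 27 higher and 6 at p under 0.05. In that fit 621 of 18266 genes were higher and 145 lower at that level. Microglial markers had a median of -0.07.

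Of 22 other striatal genes, 21 were tested in this comparison and all were higher in Q175 libraries, with a median log2 fold change of 0.72. Of these, 8 had p under 0.05, none was called by edgeR and 2 were called by DESeq2. The smallest p-values belonged to Crym, a thyroid hormone binding protein of the striatum, at 1.78 (SE 0.42, FDR = 0.345), and Lrrc10b, a leucine-rich repeat gene, at 2.41 (SE 0.57, FDR = 0.345). Next was Phactr1, a regulator of phosphatase and actin, at 0.92 (SE 0.33, FDR = 0.543). DESeq2 called Crym and Lrrc10b.

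**Figure D4:**
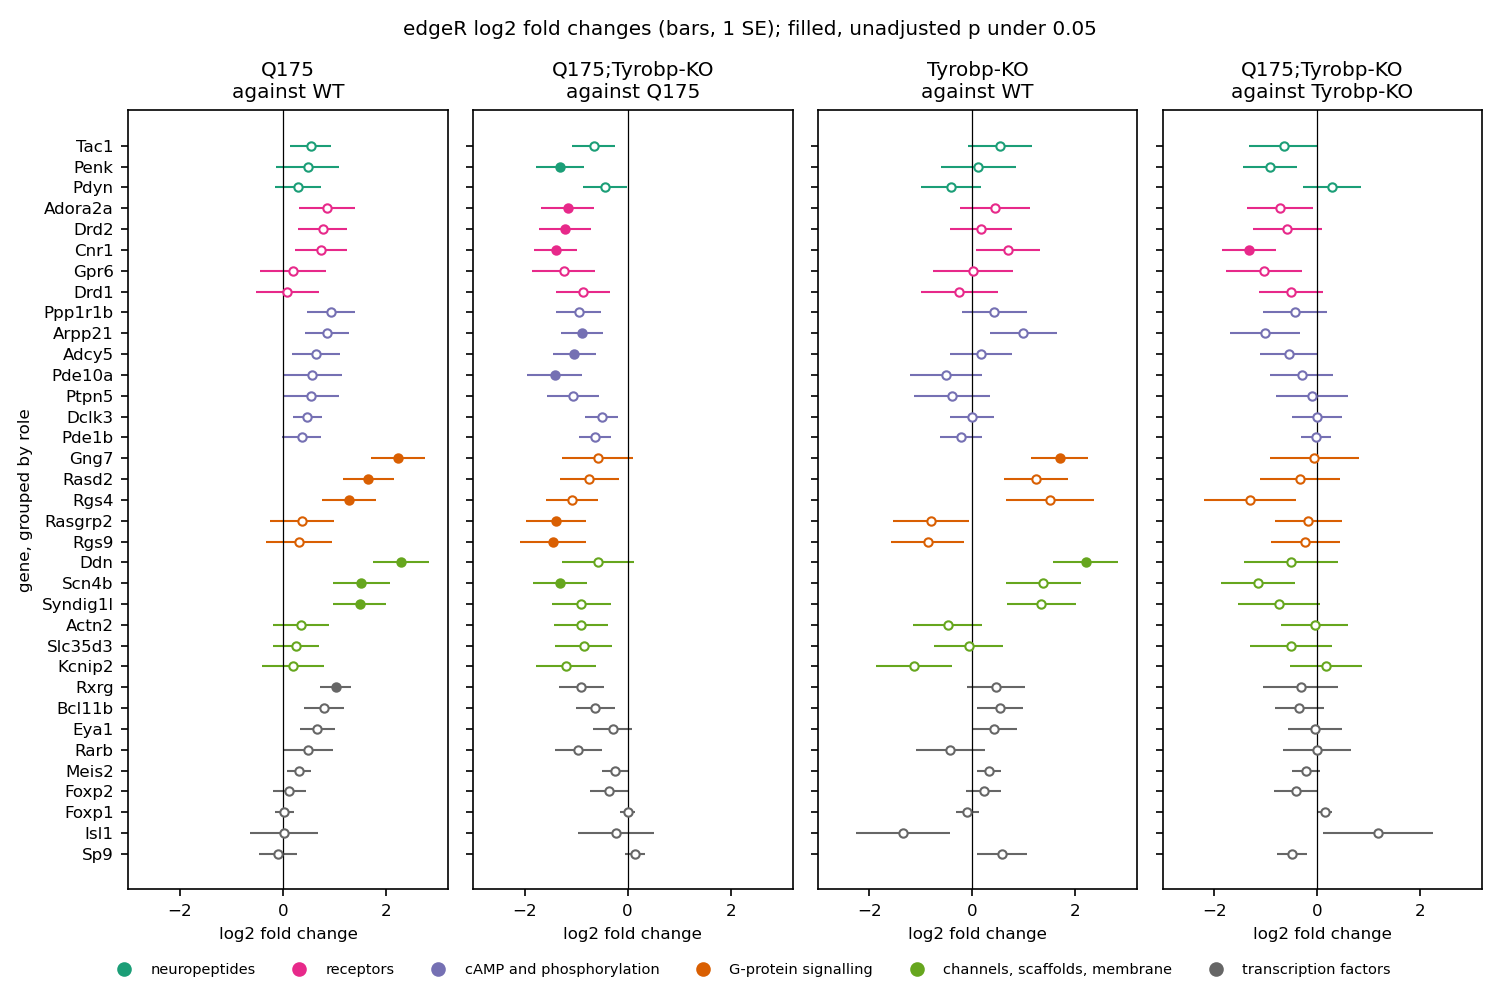
Log2 fold change of each of the 35 members in the 4 pairwise comparisons (edgeR), with bars of 1 SE and filled points where unadjusted p was under 0.05. Points lie right of 0 for 34 members in Q175 against WT and left of 0 for 33 in Q175;Tyrobp-KO against Q175.

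Q175;Tyrobp-KO libraries were compared with Q175 libraries to ask what loss of Tyrobp does in the presence of mutant huntingtin. The members tended to be lower without Tyrobp, and none passed the threshold. Of the 35, 33 had a negative log2 fold change, with a median of -0.90 beside -0.05 for the 18059 genes tested. Unadjusted p was under 0.05 for 10 members, all lower (Cnr1, Penk, Pde10a, Scn4b, Adcy5, Drd2, Rasgrp2, Adora2a, Rgs9 and Arpp21), beside 4.56% of all genes, and for no member that was higher, beside 3.45%. At an FDR under 0.1, edgeR called 0 members and 0.0111% of all genes, and DESeq2 called 0 members and 0.227%. The Q175 libraries are shared with the comparison above, so values that are high in them raise the one and lower the other.

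Receptors had a median log2 fold change of -1.21 over 5 genes. Cnr1 had 493, 604, 589, 362 and 113 in Q175 and 273, 102, 162, 169.7 and 128 in Q175;Tyrobp-KO libraries. Q175 replicates 3, 4, 9 and 14 were above every Q175;Tyrobp-KO library and replicate 17 was inside their range, and the log2 fold change was -1.40 (SE 0.42, FDR = 0.533). Drd2 had 381, 61.5, 184, 111 and 174 in Q175;Tyrobp-KO libraries, below the same 4 Q175 libraries and on both sides of Q175 replicate 17, at -1.21 (SE 0.50, FDR = 0.533). Adora2a had 298, 54.8, 136, 104 and 165 and the same pattern, at -1.17 (SE 0.51, FDR = 0.533). Drd1 had 166, 42.1, 52.6, 49.7 and 61.6, with replicate 5 apart from the other four and level with Q175 replicate 4, at -0.87 (SE 0.52, FDR = 0.533).

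Of the neuropeptides, Penk had 254, 85.1, 105, 129.7 and 119 in Q175;Tyrobp-KO libraries. Q175 replicates 3, 4 and 9 were above all of these, and Q175 replicate 17 was below all of them, at -1.31 (SE 0.47, FDR = 0.533). Tac1 had 84.9, 23.6, 35.5, 46.5 and 37.9, of which only replicate 5 reached the upper Q175 values, at -0.66 (SE 0.41, FDR = 0.537). Pdyn had 83.8, 29.5, 32.4, 18.4 and 33.97 and overlapped with Q175, at -0.45 (SE 0.43, FDR = 0.631).

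Cyclic AMP and phosphorylation genes were lower for 7 of 7 members, with a median of -0.94. Pde10a, the phosphodiesterase most typical of medium spiny neurons, had 2627, 4912, 4571, 2124 and 554 in Q175 and 2179, 584, 1108, 696 and 1069 in Q175;Tyrobp-KO libraries. Q175 replicates 3, 4 and 9 were the highest and Q175 replicate 17 the lowest of these 10 libraries, at -1.42 (SE 0.53, FDR = 0.533). Adcy5 had 9041, 11032, 11722, 10388 and 2416 in Q175 and 7471, 2405, 4708, 2978 and 4520.5 in Q175;Tyrobp-KO libraries. Its 4 highest values were all Q175 libraries, at -1.03 (SE 0.41, FDR = 0.533). Ppp1r1b had 1501, 335, 611, 724 and 937 in Q175;Tyrobp-KO libraries, where replicate 5 was above 2 of the 5 Q175 libraries, at -0.94 (SE 0.44, FDR = 0.533).

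In the other roles, Scn4b had 536, 108, 178, 354 and 349 in Q175;Tyrobp-KO libraries, all below the 4 upper Q175 libraries, at -1.31 (SE 0.52, FDR = 0.533). G-protein signalling genes were lower for 5 of 5 members, from -1.45 for Rgs9 to -0.58 for Gng7. Transcription factors had a median of -0.29, from -0.96 for Rarb, a retinoic acid receptor, to 0.15 for Sp9. Gng7 and Ddn, which led the comparison of Q175 with WT, were at -0.58 (SE 0.69, FDR = 0.686) and -0.57 (SE 0.70, FDR = 0.698) here.

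The number of members at p under 0.05 in this comparison depended on the libraries. Leaving out single libraries gave 3 to 25 members, with 3 without Q175 replicate 4 or without Q175;Tyrobp-KO replicate 11, 23 without Q175 replicate 17 and 25 without Q175;Tyrobp-KO replicate 5. It was 4 to 6 without any one of Q175 replicates 3, 9 and 14 and Q175;Tyrobp-KO replicates 12, 13 and 16. Over all genes the lower count moved as well, from 823 of 18059 in the main fit. It was 323 of 17760 without Q175 replicate 4 and 484 of 17943 without Q175;Tyrobp-KO replicate 11. Without Q175 replicate 17 it was 1678 of 17976, and without Q175;Tyrobp-KO replicate 5 it was 1944 of 18017. In the fits with 4 to 6 members it ranged from 384 to 1366 genes. Without the 3 libraries highest in choroid plexus markers the members' count was 0, beside 299 of 17539 genes, with a members' median of -0.63 and 33 members still lower. Those left out were Q175 replicates 3 and 4, both high in the members' sum, and Q175;Tyrobp-KO replicate 11, the lowest of its group. The loss of these libraries and their choroid plexus content cannot be told apart in that fit. Choroid plexus markers had a median of -2.11 here, astrocyte markers -0.32, pan-neuronal markers -0.33 and microglial markers 0.02. With the pan-neuronal level as a term, 12 members had p under 0.05, beside 252 higher and 643 lower of 18059 genes, and the members' median was -0.63. The other striatal genes were lower for 21 of 21, with a median of -0.85 and p under 0.05 for 3.

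Tyrobp-KO was compared with WT to ask what the loss of Tyrobp does without mutant huntingtin. The members had no common direction. Of the 35, 21 were higher and 14 lower, with a median of 0.17 beside 0.02 for the 18017 genes tested. Unadjusted p was under 0.05 for 2 members, Ddn and Gng7, both higher, beside 3.66% of all genes, and for no lower member, beside 3.15%. At an FDR under 0.1, edgeR called 0 members and 0.0222% of all genes, and DESeq2 called 1, Ddn, beside 0.932%.

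Ddn had 368, 1222 and 4318 in Tyrobp-KO libraries. Replicates 19 and 20 were above every WT library and replicate 15 was inside the WT range, at 2.20 (SE 0.63, FDR = 0.565), or 0.83 without Tyrobp-KO replicate 20. Gng7 had 339, 904 and 3214 and the same pattern, at 1.69 (SE 0.55, FDR = 0.610), or 0.38 without replicate 20. For Syndig1l, Rasd2, Scn4b and Rgs4, replicate 20 alone was above all WT libraries. Syndig1l had 153, 273 and 1304 in Tyrobp-KO libraries, at 1.34 (SE 0.67, FDR = 0.796). Rasd2 had 162, 381 and 1405, at 1.23 (SE 0.63, FDR = 0.798). Scn4b had 156, 377 and 1478, at 1.37 (SE 0.73, FDR = 0.819). Each of these values came from a group of 3 in which replicate 20 was the highest. Rgs4 had 36.8, 91.3 and 754, at 1.50 (SE 0.85, FDR = 0.843).

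The dopamine receptors and peptides had no p under 0.05, and Tyrobp-KO replicate 20 was again the highest of its group. Drd1 had 45.7, 68.1 and 205 in Tyrobp-KO libraries, all inside the WT range, at -0.25 (SE 0.75, FDR = 0.999). Drd2 had 96.9, 183 and 536, of which replicate 20 was above the WT range, at 0.17 (SE 0.61, FDR = 0.999). Adora2a had 96.9, 143 and 504, at 0.43 (SE 0.68, FDR = 0.999). For Adora2a, too, only replicate 20 lay above the WT range. Penk had 110.3, 194 and 478, inside the WT range, at 0.12 (SE 0.72, FDR = 0.999). Pdyn had 21.2, 24.1 and 52.4, also inside it, at -0.41 (SE 0.58, FDR = 0.999). Tac1 had 16.7, 46.5 and 149.8, with replicate 15 below and replicate 20 above all WT libraries, at 0.54 (SE 0.62, FDR = 0.999). Ppp1r1b, with the pattern of Drd2, had 353, 711 and 2232, at 0.43 (SE 0.63, FDR = 0.999). Isl1 had 4.46, 0 and 13.4, the lowest log2 fold change of the members at -1.35 (SE 0.91, FDR = 0.899), from the lowest counts of the list.

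The direction changed without Tyrobp-KO replicate 20. In its absence the members' median was -0.71, 5 of 35 were higher, and p was under 0.05 for 0 higher and 10 lower members. Over all genes the counts shifted too, to 336 higher and 1714 lower of 17876, from 660 and 568 of 18017 in the main fit. Without WT replicate 6 or Tyrobp-KO replicate 15, p was under 0.05 for 6 higher members, beside 646 of 17824 and 788 of 17864 genes. Astrocyte markers were higher for 12 of 12 genes, with a median of 0.94, and were highest in the same library. With the pan-neuronal level as a term, edgeR called 4 members at an FDR under 0.1, beside 1.96% of all genes. Ddn was higher in that fit, at a log2 fold change of 1.47, and Kcnip2, Rgs9 and Actn2, an actin cross-linker of dendritic spines, were lower, at -1.67, -1.26 and -0.99.

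Q175;Tyrobp-KO libraries were compared with Tyrobp-KO libraries to ask what mutant huntingtin does in the absence of Tyrobp. Of the 35 members, 31 were lower and 4 higher, with a median of -0.35 beside -0.01 for the 17723 genes tested. Unadjusted p was under 0.05 for 1 member, Cnr1, which was lower, beside 8.24% of all genes, and for no higher member, beside 4.99%. At an FDR under 0.1, edgeR called 0 members and 0% of all genes, and DESeq2 called 0 members and 3.84%. With total counts in place of TMM scaling, 12 members were higher, and the median was -0.16.

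Cnr1 had 184, 238 and 819.9 in Tyrobp-KO libraries, beside 102 to 273 in Q175;Tyrobp-KO libraries. Of the latter, replicate 5 was above 2 of the 3 Tyrobp-KO libraries and the others were below all 3, at -1.32 (SE 0.52, FDR = 0.333), or -0.29 without Tyrobp-KO replicate 20. Sp9 had 382, 382 and 185 in Tyrobp-KO and 280.4, 207, 266, 209 and 149 in Q175;Tyrobp-KO libraries. It differed from most members in that Tyrobp-KO replicate 20 was the lowest of its group, and the log2 fold change was -0.49 (SE 0.28, FDR = 0.497). Arpp21, a phosphoprotein regulated by dopamine and cyclic AMP, had 834, 1050.1 and 5819.6 in Tyrobp-KO and 2471, 620.0, 1118, 983 and 1231 in Q175;Tyrobp-KO libraries. Tyrobp-KO replicate 20 was the highest of these 8 libraries, at -1.01 (SE 0.67, FDR = 0.561). Rgs4 had 226, 44.6, 61.5, 110.2 and 166 in Q175;Tyrobp-KO libraries, all below Tyrobp-KO replicate 20, at -1.30 (SE 0.89, FDR = 0.572). Scn4b had -1.15 (SE 0.71, FDR = 0.525).

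The receptors and peptides fixed for every comparison did not reach p under 0.05 here. The log2 fold change was -0.51 (SE 0.62, FDR = 0.780) for Drd1, -0.58 (SE 0.66, FDR = 0.761) for Drd2 and -0.72 (SE 0.64, FDR = 0.683) for Adora2a. It was -0.91 (SE 0.52, FDR = 0.484) for Penk, -0.65 (SE 0.67, FDR = 0.727) for Tac1, 0.29 (SE 0.56, FDR = 0.869) for Pdyn and -0.43 (SE 0.62, FDR = 0.822) for Ppp1r1b. Leaving out Tyrobp-KO replicate 20 turned the direction, to a median of 0.69 with 29 of 35 members higher, 2 of them at p under 0.05. In that fit 1540 of 17578 genes were higher at that level, against 884 of 17723 in the main fit. The number of lower members at p under 0.05 was 4 without Q175;Tyrobp-KO replicate 5, 3 without Tyrobp-KO replicate 15 and 0 without any one of Q175;Tyrobp-KO replicates 11, 12, 13 and 16. Lower genes numbered 1488 of 17596 and 1254 of 17565 in the first 2 of these fits and 886 to 1257 in the others, against 1460 of 17723 in the main fit. With the pan-neuronal level as a term, edgeR called 3 members at an FDR under 0.1, beside 9.65% of all genes. These were Cnr1, Penk and Arpp21, all lower, at -1.02, -0.74 and -0.53. Choroid plexus markers had a median of 3.03 in this comparison, astrocyte markers -0.09 and pan-neuronal markers -0.12.

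Whether the Q175 difference itself depended on Tyrobp was tested with an interaction term over all 18 libraries. A negative value means that the log2 fold change of Q175;Tyrobp-KO against Tyrobp-KO was lower than that of Q175 against WT. Of the 35 members, 32 were negative, with a median of -0.85 beside 0.04 for the 18613 genes tested. Unadjusted p was under 0.05 for 7 members, all negative (Scn4b, Ddn, Cnr1, Rgs4, Syndig1l, Arpp21 and Gng7), beside 3.02% of all genes, and for no positive member, beside 2.99%. At an FDR under 0.1, edgeR called 0 members and 0% of all genes, with a smallest FDR of 0.716, and DESeq2 called 0 members and 0.0107%.

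Scn4b had an interaction of -2.63 (SE 0.98, FDR = 0.716) on the log2 scale, where its log2 fold change was 1.53 in Q175 against WT and -1.15 in Q175;Tyrobp-KO against Tyrobp-KO. Ddn had 2447, 209.8, 415, 1701 and 2242 in Q175;Tyrobp-KO libraries, where replicate 11 was below the WT range, replicate 12 inside it and the other three above it. Its interaction was -2.72 (SE 1.07, FDR = 0.716), or -1.41 without Tyrobp-KO replicate 20. Syndig1l had 630.0, 77.5, 173, 362 and 494, with replicates 5 and 16 above the WT range, and an interaction of -2.19 (SE 0.98, FDR = 0.716). For Cnr1, WT libraries had 251, 124, 556, 242 and 88.7, and the interaction was -2.03 (SE 0.81, FDR = 0.716), or -1.05 without Tyrobp-KO replicate 20. Arpp21 had 1340.1, 973, 2418, 1264 and 435 in WT and 2129, 2429.6, 2351, 4058 and 909 in Q175 libraries. The highest Arpp21 values of all were in Tyrobp-KO replicate 20 and Q175 replicate 14, and the interaction was -1.84 (SE 0.83, FDR = 0.716). Rgs4 had -2.54 (SE 1.06, FDR = 0.716).

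The interaction changed when the libraries highest in astrocyte markers were left out. These libraries were also the highest of all in the members' sum and in the pan-neuronal sum. Leaving them out therefore cannot tell the part of astrocytes from the members' own level. Without Q175 replicate 14 and Tyrobp-KO replicate 20, the members' median was 0.02, 18 of 35 were positive, and p was under 0.05 for 1 positive and 0 negative members. Over all 18504 genes, 312 were positive and 140 negative at that level. Without Tyrobp-KO replicate 20 alone the members' median was -0.11, with 0 negative members at p under 0.05, and without Q175 replicate 14 alone it was -0.81, with 2. Negative genes then numbered 139 of 18578 and 250 of 18561, against 562 of 18613 in the main fit, so few members would be counted at these shares. The number of negative members at p under 0.05 was 14 without WT replicate 6 or Q175;Tyrobp-KO replicate 5, 11 without Tyrobp-KO replicate 15, and 4 without WT replicate 1, 2 or 8 or Q175;Tyrobp-KO replicate 11 or 12. Negative genes numbered 727 of 18496 without WT replicate 6, 1104 of 18593 without Q175;Tyrobp-KO replicate 5 and 939 of 18538 without Tyrobp-KO replicate 15. In the fits with 4 members they numbered 368 to 556. With sex as a term the members' count was 0, beside 59 of 18613 genes, and the members' median was -0.54. Astrocyte markers had a median interaction of -1.32, with 12 of 12 negative and 4 at p under 0.05.

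Some pairs of members did not vary together within the libraries. Ratios between members were taken inside each library, so that gene length cancels in comparisons between libraries. The total neuronal share cancels as well only where both transcripts come from neurons alone, which was not tested. The ratios were chosen after the values were seen and are given without a test. Gng7 and Rgs9, and Ddn and Kcnip2, had the highest and lowest log2 fold change of their roles in Q175 against WT and in Tyrobp-KO against WT. A separation of groups in these ratios therefore follows in part from that choice and says nothing about other pairs. How often other pairs separate was not tested. Gng7 over Rgs9, both of G-protein signalling, was 0.148, 0.262, 0.0971, 0.284 and 0.718 in WT and 0.7103, 1.19 and 1.19 in Tyrobp-KO libraries. It was 0.897, 0.167, 0.185, 3.998 and 2.22 in Q175 and 1.17, 0.409, 0.314, 3.74 and 2.68 in Q175;Tyrobp-KO libraries. Q175 replicates 4 and 9 were thus inside the WT range and replicates 3, 14 and 17 above it. Q175 replicate 17, the lowest of its group for most members, had the second highest ratio of its group. Gng7 had 2645, 284, 439, 1556 and 2265 in Q175;Tyrobp-KO libraries, and Rasd2, which followed it, had 917, 129.7, 229.6, 599.8 and 727.

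Ddn over Kcnip2, a dendritic scaffold over a channel subunit, was 0.393, 0.968, 0.497, 1.07 and 1.62 in WT and 3.75, 9.04 and 6.91 in Tyrobp-KO libraries. It was 2.904, 0.698, 1.02, 10.3 and 9.64 in Q175 and 3.65, 1.15, 1.17, 9.098 and 10.3 in Q175;Tyrobp-KO libraries. All 3 Tyrobp-KO libraries were above all WT libraries, and in both Q175 groups some libraries were in the WT range and others above it. The libraries above 8 were Tyrobp-KO replicate 19, Q175 replicates 14 and 17 and Q175;Tyrobp-KO replicates 13 and 16. Their astrocyte sums were 27437, 115885, 25501, 54626 and 52290, against 9601 to 19366 in the WT libraries. The sums were 44080.1 in Q175 replicate 3, 30051 in Q175 replicate 9, 60285 in Q175;Tyrobp-KO replicate 5 and 76030.2 in Tyrobp-KO replicate 20. The ratios there were 2.90, 1.02, 3.65 and 6.91, of which only 1.02 was inside the WT range. Astrocyte sums were 13608 in Tyrobp-KO replicate 15, 17552 in Q175 replicate 4, and 13721 and 12402 in Q175;Tyrobp-KO replicates 11 and 12. Their ratios were 3.75, 0.698, 1.15 and 1.17. The part of astrocytes in these ratios was not tested.

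Between the pathways, the summed indirect-pathway members exceeded the summed direct-pathway members in every library, by 1.84 times in WT replicate 1 to 5.26 times in Tyrobp-KO replicate 15. The ratio was 1.84, 2.56, 3.19, 4.302 and 2.59 in WT, 5.26, 4.39 and 2.95 in Tyrobp-KO, 4.18, 3.797, 4.08, 2.33 and 2.47 in Q175 and 2.32, 2.89, 3.28, 2.78 and 2.85 in Q175;Tyrobp-KO libraries. The 4 groups overlapped, and as a ratio of summed counts it depends on the lengths of the genes and is comparable between libraries only. Penk over Tac1 ranged from 2.06 in Q175 replicate 14 to 10.95 in WT replicate 6, and Drd2 over Drd1 from 1.45 in WT replicate 6 to 4.02 in WT replicate 7, so that both receptor extremes lay within the WT group.

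**Figure D5:**
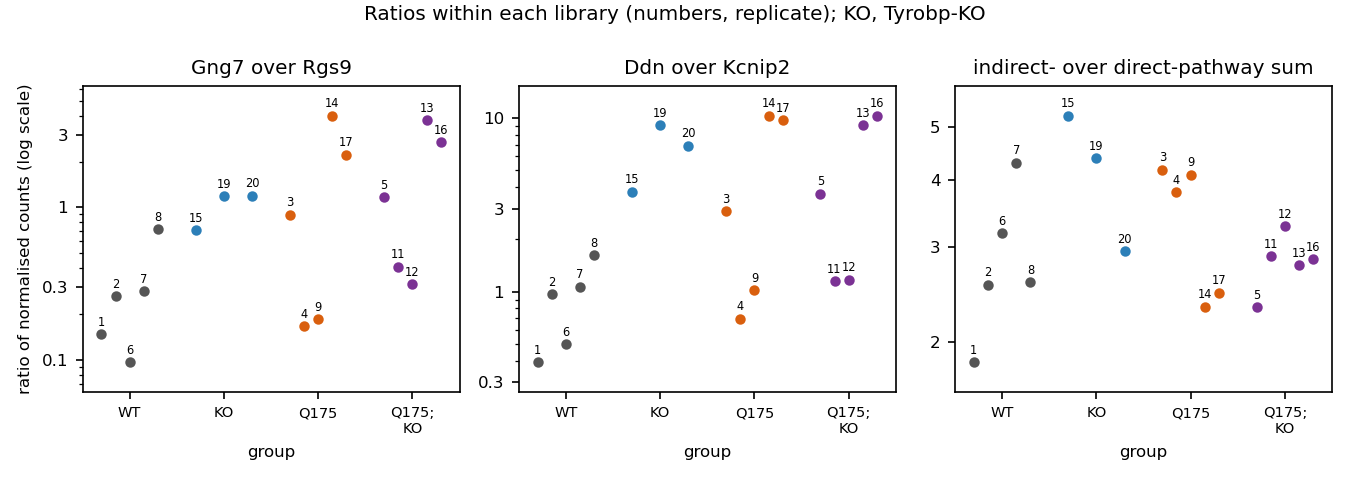
Ratios of normalised counts within each library (log scale), labelled by replicate number, for Gng7 over Rgs9, Ddn over Kcnip2 and the summed indirect- over direct-pathway members. The ratios of Ddn to Kcnip2, the extremes of their role in Tyrobp-KO against WT, lie above all WT libraries in all 3 Tyrobp-KO libraries. The ratio of the pathways ranges from 1.84 to 5.26.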

How the data were processed

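The members and lists were chosen with earlier results of these data known. RNA was sequenced from 18 libraries with a SMART-Seq v4 kit, per the labels. The authors aligned reads with STAR to the mouse genome and deposited counts per Ensembl gene, whole numbers without normalisation, from featureCounts. The methods give GRCm38 and the submitters' processing notes GRCh38, and the 55536 identifiers all matched GENCODE M21 (GRCm38). Each sample held 1 striatum by the methods and a pair by the labels. In the count table, 2 columns without a labelled sample were not used. Counts were scaled with edgeR 4.0.16 (TMM, factors 0.807 to 1.12, R 4.3.3). The quasi-likelihood test of edgeR, two-sided, was applied to the libraries of each comparison (all 4 groups for the interaction) and to genes that reached 1 CPM in 1 library or more, with Benjamini-Hochberg adjustment over all genes and an FDR threshold of 0.1. SE is the log2 fold change over the square root of F. All 35 members passed this filter in each comparison. Markers were summed as normalised counts. Alternatives were DESeq2 1.42.0, other scalings and filters, an FDR of 0.05, 1 fit over all groups, sex or the pan-neuronal level (mean log2 CPM, prior count 2) as a term, and leaving out libraries. Leaving out the libraries rich in choroid plexus or astrocyte markers, and leaving out single libraries for the ratio of sums, were added after seeing the data. Named genes were Drd1, Drd2, Adora2a, Penk, Tac1, Pdyn and Ppp1r1b, the 6 members with the smallest p per comparison, the extremes of each role, members at 0 or called by 1 tool only, and the other striatal genes with the smallest p for Q175 against WT, of which 1 is not reported here. Others named were chosen after their values were seen. Libraries were not stranded, and exons of Penk, Sp9, Arpp21, Ddn, Foxp1, Ppp1r1b, Rarb, Rasgrp2 and Syndig1l overlap other genes. Amplified reads without molecular identifiers are not independent molecules.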

Additional observations from a re-analysis of the deposited data

Results flagged for a closer look

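A library was marked where its gap to the nearest other, over the group's range, exceeded Dixon's 95% value, and 14 of 123 groups of 5 libraries were so marked, where chance marks about 1 in 20. Most marks were of Q175 replicate 17, which was low. Its normalised counts were 6.62 for Slc35d3 (28.6 to 33.9 in the other four), 69.5 for Adora2a, 105 for Drd2, 2416 for Adcy5, 86.9 for Kcnip2, 483 for Ppp1r1b, 502 for Ptpn5 and 141 for Scn4b, and the members' sum was 13048. Genes of 1 library are not independent, so these marks describe 1 low library. Q175 replicate 14 was high for Eya1, at 179 beside 66.7 to 88.5, and for the pan-neuronal sum, at 28010 beside 8365 to 11465. Q175;Tyrobp-KO replicate 5 was high for Drd1, at 166 beside 42.1 to 61.6, and for Gpr6, at 49.1 beside 8.65 to 14.2. WT replicate 8 was low for Foxp2, at 109 beside 286 to 353.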

How the results depend on the processing

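No paired analysis was made because the labels and methods state no pairing between the groups. Of 1514 alternative values, 1406 were labelled as kept, 62 moved, 8 newly passed and 38 changed direction. Fold changes were kept if they held their direction and side of the threshold, and medians if they moved by less than the replicate spread of 0.86. The main medians of 0.54, 0.17, -0.35 and -0.85 were all smaller in size than this spread. A median could therefore reach 0 or change sign and still be labelled as kept, and this label is no measure of stability for medians. The median interaction of -0.11 without Tyrobp-KO replicate 20 was labelled as kept. Counts of members were kept if they changed by no more than a set ratio, so the 1406 include counts that differed. Counts over all genes differ between settings and follow in brackets. DESeq2 gave 3 called members for Q175 against WT (1.28% of genes), 1 for Tyrobp-KO against WT (0.932%), and 17 lower members at p under 0.05 for Q175;Tyrobp-KO against Q175 (1000 of 18059 genes). Without a filter, p was under 0.05 for 18 lower members in that comparison (1519 of 32351). It was so for 6 higher members in Tyrobp-KO against WT (1003 of 31007) and 11 negative interactions (1428 of 34037). The fit over all groups left 3 lower members in Q175;Tyrobp-KO against Q175 (555 of 18059). With sex as a term, p was under 0.05 for 4 higher members in Q175 against WT (208 of 18266), 1 in Tyrobp-KO against WT (195 of 18017), 1 higher and 0 lower in Q175;Tyrobp-KO against Tyrobp-KO (849 and 1225 of 17723), and 0 negative interactions (59 of 18613). With the pan-neuronal level as a term, edgeR called 4 members in Tyrobp-KO against WT (1.96%) and 3 in Q175;Tyrobp-KO against Tyrobp-KO (9.65%). Under it, p was under 0.05 for 5 higher and 8 lower members in the first of these (656 and 1499 of 18017) and 6 lower in the second (2132 of 17723). There were 1 positive and 4 negative interactions (561 and 263 of 18613). Without the libraries highest in choroid plexus markers, there were 0 lower members in Q175;Tyrobp-KO against Q175 (299 of 17539), 0 in Q175;Tyrobp-KO against Tyrobp-KO (1257 of 17590), and 1 negative interaction (405 of 18341). Without those highest in astrocyte markers, which also had the highest members' sums, there were 1 positive and 0 negative interactions (312 and 140 of 18504) and the members' median interaction was 0.018. Total-count scaling shifted the median of all genes from -0.05 to 0.08 in Q175;Tyrobp-KO against Q175 and from 0.04 to 0.15 in the interaction, where the members' medians were -0.77 and -0.66.

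Some named genes changed direction. Drd1 in Q175 against WT was -0.38 with the pan-neuronal term. In Tyrobp-KO against WT, Drd2 was -0.027 with sex and -0.22 with the pan-neuronal term, under which Penk was -0.047, Tac1 -0.069 and Ppp1r1b -0.0062. The Rgs4 interaction was 0.10 without the libraries highest in astrocyte markers. The cause of these changes was not tested.

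Leaving out 1 library at a time gave 5 to 17 higher members at p under 0.05 in Q175 against WT, 3 to 25 lower in Q175;Tyrobp-KO against Q175, 0 to 6 higher and 0 to 10 lower in Tyrobp-KO against WT, 0 to 2 higher and 0 to 4 lower in Q175;Tyrobp-KO against Tyrobp-KO, and 0 to 14 negative interactions. Over all genes tested, the same counts ranged from 607 to 1121 and from 323 to 1944 in the first 2 comparisons. They were 336 to 788 higher and 244 to 1714 lower in Tyrobp-KO against WT. In Q175;Tyrobp-KO against Tyrobp-KO they were 577 to 1540 higher and 886 to 1488 lower, and negative interactions numbered 139 to 1104. Medians ranged from 0.33 to 1.04, -1.34 to -0.68, -0.71 to 0.64, -0.75 to 0.69 and -1.34 to -0.11 in the same order. The log2 ratio of the members' mean sums ranged from -0.68 to 0.63 in Tyrobp-KO against WT and -0.73 to 0.52 in Q175;Tyrobp-KO against Tyrobp-KO. Log2 fold changes that crossed 0 ranged, in Tyrobp-KO against WT, from -1.19 to 0.64 for Drd1, from -0.83 to 0.66 for Drd2, from -0.66 to 1.15 for Adora2a, from -0.71 to 1.07 for Penk, from -0.65 to 1.01 for Tac1, from -0.97 to 0.11 for Pdyn, from -0.67 to 1.02 for Ppp1r1b, from -0.15 to 1.81 for Syndig1l, from -0.075 to 1.69 for Rasd2, from -0.0095 to 2.14 for Scn4b and from -0.74 to 2.03 for Rgs4. In Q175;Tyrobp-KO against Tyrobp-KO they ranged from -1.09 to 0.44 for Drd1, from -1.08 to 0.44 for Drd2, from -1.16 to 0.39 for Adora2a, from -1.11 to 0.56 for Tac1, from -0.22 to 0.85 for Pdyn, from -0.85 to 0.69 for Ppp1r1b, from -1.61 to 0.25 for Scn4b, from -1.44 to 0.51 for Arpp21 and from -1.82 to 0.97 for Rgs4, and in Q175 against WT from -0.22 to 0.95 for Drd1. Depth gave every member but Isl1 a count in each library, and the SD of the members' sum was 14906 in WT and 23658 in Tyrobp-KO libraries.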
